A study of Drosophila melanogaster with 6 samples.

Results

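The histone gene array of Drosophila melanogaster lies on chromosome arm 2L, and the peaks described here were those of GAGA factor (GAF) within it. They were chosen by position from the authors' 1 peak list for the series: every peak on 2L with its midpoint from 21400000 to 21560000 on FlyBase release 5. This gave 89 peaks, of 11713 in the whole list and 1355 on 2L. The stretch was picked because its peaks were already known to be dense and evenly spaced in this list, so positions, widths and scores are given as a description, with no test. The list came from 6 libraries, 3 from GAF immunoprecipitates and 3 input controls of the same chromatin that skipped the antibody step. All 6 libraries were from whole embryos 8 to 16 h old of the strain Y cn bw sp, which were fixed in 1.8% formaldehyde for 15 min and received no other treatment that the labels name. The genotype, shared by ChIP and input, carries the alleles y[1] and oc[R3.2], next Gr22b[1] and Gr22d[1], cn[1] with CG33964[R4.2], then bw[1] and sp[1], and finally LysC[1] and lab[R4.2], MstProx[1] with GstD5[1], and Rh6[1]. The antibody was a rabbit polyclonal, KW3-Trl-D2, against part of GAF.

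GAF, encoded by Trl, is a zinc finger protein that binds GA-rich DNA and helps to keep promoters open. The replication-dependent histone genes of the fly are a tandem repeat whose unit holds 1 copy of each of the 5 kinds: His1, the linker histone that sits on the DNA between nucleosomes, and the core histones His2A, His2B, His3 and His4, around which the DNA is wrapped. They are transcribed in S phase to supply the histones of replicating chromatin. The divergently transcribed His3 and His4 share a promoter region with GA repeats, a kind of sequence that GAF and the zinc finger protein CLAMP can bind.

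In the RefSeq gene table, which is of release 6, the run of histone genes on 2L began with 3 histone pseudogenes (His-Psi) after nrv3, the gene of a sodium pump subunit, and ended before Lamp1, a gene of a lysosomal membrane protein. It held 111 genes of the 5 kinds: 23 of His1, 23 of His2B, 20 of His2A, 22 of His4 and 23 of His3. The order repeated 23 times, and 19 of the repeats read His1, His2B, His2A, His4, His3. In 3 repeats, the first, the third and the fifth, a pseudogene (His-Psi:CR33802, His-Psi:CR33805 and His-Psi:CR33811) took the place of His2A. In the last repeat the pseudogene His-Psi:CR33867 stood in the place of His4, before His3:CG33866, and the pseudogene His-Psi:CR31614 closed the run. The table served for names and order only. No release 6 coordinate was set against the peaks, which are on release 5, so no peak is assigned to a gene here.

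The 89 peaks fell into 24 strong ones, with an authors' score of 100 or more, and 65 weaker ones. In the stretch 27.0% of peaks scored 100 or more, against 45.3% in the rest of 2L and 42.7% in the whole list. Of the 24 strong peaks, 23 formed the array, which ran for 123.612 kb from 21418250 to 21541861. The remaining 1, from 21400880 to 21402030 with a score of 587.41, stood apart to the left. The array joins the runs on both sides of a break in spacing, described below. Its run before the break held 5 strong peaks, the fewest counted as a run, and the lowest of them scored 132.97. No value per library was used, so none of the values has a replicate error, and an SD given below is the spread over peaks or spacings. The repeats of the histone genes are taken here to be near-identical copies, which was not checked on sequence. How the authors assigned reads that match several copies is not given in the sources used here, so the value of a single unit is uncertain and units are not independent measurements.

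Peaks covered 61.5% of the array and 4.52% of the rest of 2L. The array held 6.39 peaks per 10 kb, against 0.554 per 10 kb on the rest of 2L. Of the 76.0 kb covered in the array, 46.6 kb, 61.3%, lay in its 23 strong peaks.

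**Figure D1:**
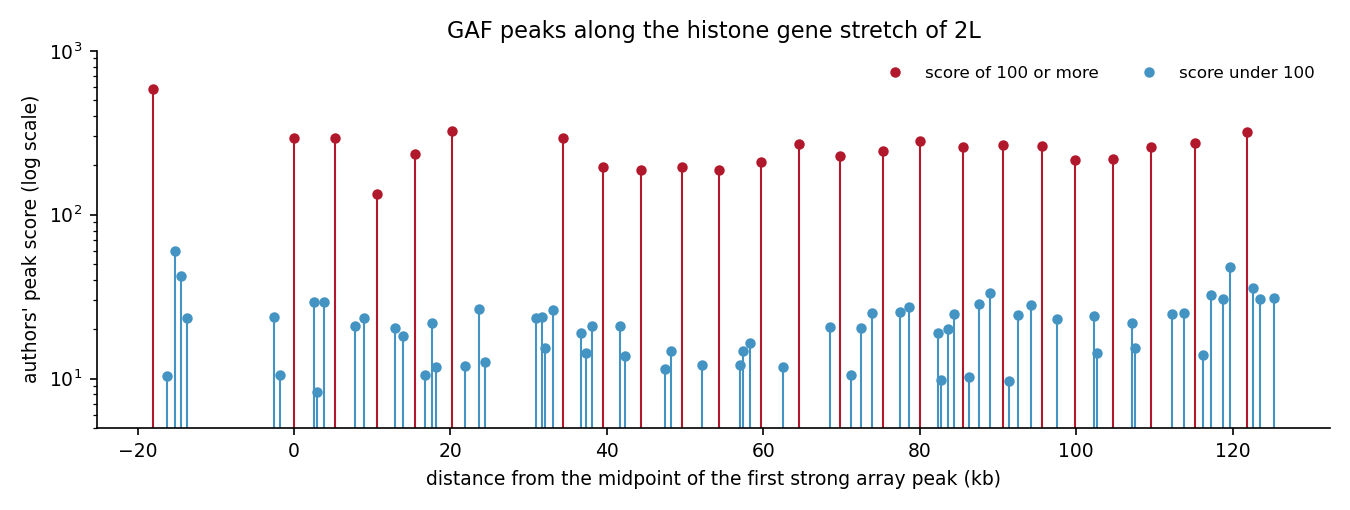
Authors' score (log axis) of each of the 89 peaks against the distance of its midpoint from the midpoint of the first strong array peak, in kb; red points are peaks with a score of 100 or more and blue points weaker ones. The 23 strong array peaks recur about every 5 kb between 132.97 and 322.73, with 1 wide break after the fifth, and the peak at 587.41 stands alone at the left.

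The strong peaks of the array recurred about every 5 kb. There were 22 spacings between the 23 strong peaks, and 21 of them were at most 1.5 times the median spacing. Each of these 21 is called a unit here, a name that rests on the peaks alone and not on the gene order. Between midpoints these 21 averaged 5124 bp (SD 485 bp), from 4209 to 6715 bp. Measured from the end of 1 strong peak to the end of the next, they averaged 5098 bp (SD 376 bp), from 4824 to 6645 bp. Measured from start to start they averaged 5150 bp with a wider spread (SD 744 bp), from 3399 to 6785 bp. The right-hand end of the strong peak was therefore its most regular landmark, and the left-hand start the least regular.

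Only the last of the end-to-end spacings was far from the others. Without it, the remaining 20 averaged 5021 bp (SD 129 bp), from 4824 to 5315 bp, with a coefficient of variation of 0.0258 against 0.0738 for all 21. The last spacing, 6645 bp, was 1.32 times the mean of those 20. Some neighbouring units had nearly the same length. The first 5 spacings after the break were 5040, 5061, 5048, 5046 and 5034 bp. A row of 3 units near the right edge was shorter, with 4840, 4845 and 4847 bp (mean 4844 bp, SD 3.61 bp).

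**Figure D2:**
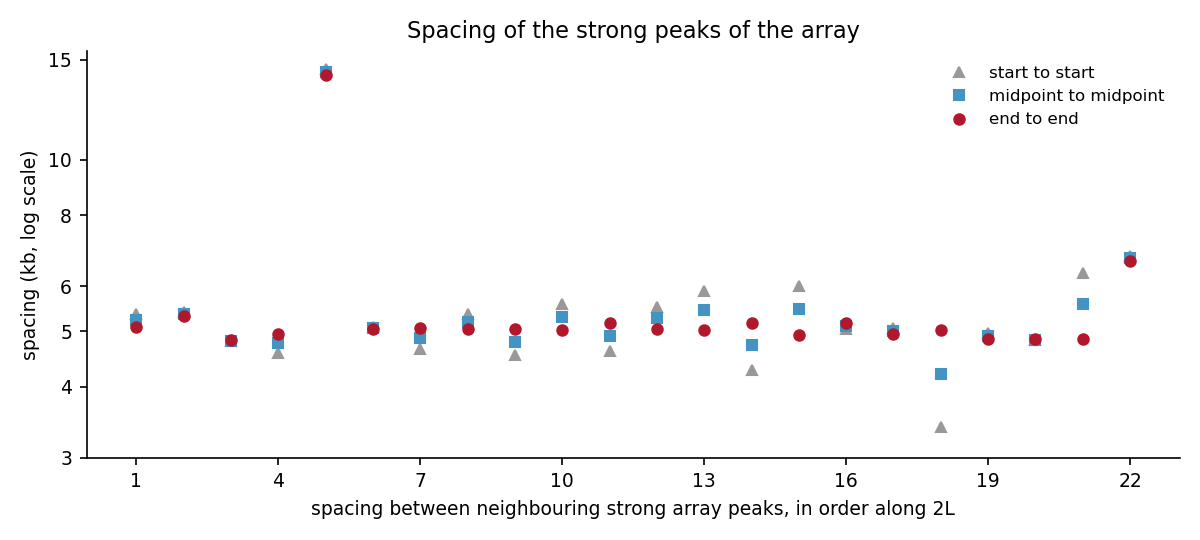
Spacing between neighbouring strong array peaks (kb, log axis) in their order along 2L, from start to start, from midpoint to midpoint and from end to end. The end-to-end spacings lie in the narrowest band, apart from the break of 14075 bp after the fifth peak and the last spacing of 6645 bp.

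The run of strong peaks was broken once, between the fifth, which ended at 21440890 with a score of 322.73, and the sixth, which began at 21452872 with a score of 294.52. From end to end this spacing was 14075 bp, 2.76 times the mean of the 21 units and so not a whole number of them. The break held 7 weaker peaks, with scores from 11.86 to 26.53. They lay at both sides of a stretch of 6186 bp, from 21444065 to 21450250, with no peak at all. Elsewhere in the array the longest stretch without a peak was 2429 bp.

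The 4 weaker peaks on the right of this empty stretch had midpoints 4546.5, 3800.5, 3348 and 2407 bp before the end of the sixth strong peak. The 3 on the left had midpoints 432.5, 2260.5 and 3042.5 bp after the end of the fifth. What lies in the release 5 sequence of the empty stretch was not analysed here.

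The weaker peaks inside the units were described by their offsets. The 21 units held 49 of them, with a mean of 2.33 per unit (SD 0.913) and 1 to 4 in each unit. Counted from the end of the strong peak before, 3 zones were drawn after the offsets were seen. They take up most of the room between strong peaks, so a high count inside them was largely set by how they were drawn. Of the 49 midpoints, 48 fell into the zones. The exception lay 3934 bp after the end, in the last unit. No midpoint lay from 500 to 1000 bp or from 2000 to 2250 bp after that end. Scores were low throughout, from 8.28 to 47.98 with a median of 20.39.

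In the zone nearest to the strong peak, within 500 bp of its end, 5 units had a peak each. These were the weakest of the 3 zones, with scores from 9.71 to 13.91 and widths from 225 to 331 bp. They followed strong peaks 4, 13, 16, 17 and 22 of the array.

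The middle zone, 1000 to 2000 bp after the end, was occupied in 20 of the 21 units, by 28 peaks with a median score of 19.695. A single peak stood there in 12 units and a pair in 8. The single ones were mostly broad, with a mean width of 708 bp (SD 221 bp), against 321 bp (SD 93.6 bp) for the 16 peaks of the pairs. Within a pair, the first scored higher than the second in 7 of 8 units, with means of 20.98 and 12.75 (SD 4.85 and 2.55, n = 8 each). The second was the wider in 7 of 8. The only unit with an empty middle zone was the eleventh, between strong peaks 12 and 13.

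The far zone, 2250 to 3250 bp after the end and left of the next strong peak, was occupied in 14 units, by 15 peaks with a median score of 24.71. In these units the next strong peak was short, from 997 to 2188 bp wide. In the 7 units with an empty far zone the next strong peak was from 2431 to 2739 bp wide, and the widths of the 2 sets did not overlap. Peaks of the list do not overlap each other, so a strong peak that reaches further left leaves no room for a separate weaker one, and the presence of a far-zone peak and the width of the strong peak are not separate measurements.

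The far-zone peak and the strong peak were also counted as 1 block. The far zone was drawn from offsets to the same strong peak end from which the block's left edge is measured, so the spread of that edge is largely set by how the block was built. The same holds for the spread of the block's length, since a far-zone peak was added only where the strong peak was short. The block began from 2137 to 2630 bp after the end of the previous strong peak (mean 2369 bp, SD 123 bp, n = 21). Its length was 2659 bp on average (SD 126 bp, range 2431 to 2962 bp) in the 20 units other than the last, against 2050 bp (SD 558 bp) for the strong peak alone in the same units. In the last unit the block was 4131 bp long. Over all 21 units the block averaged 2730 bp (SD 344 bp) and the strong peak alone 2000 bp (SD 591 bp). Peaks of all kinds covered from 49.8 to 74.9% of a unit (mean 64.6%, SD 6.08, n = 21).

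Narrow strong peaks occurred in the right-hand part of the array. Of the 23 strong peaks, 6 were under 1500 bp wide (997 to 1302 bp) and 17 were from 2036 to 2739 bp wide. All 6 were among the last 10, at places 14, 16, 17, 18, 22 and 23. In 5 of the 6 a weaker peak of 891 to 1497 bp ended 87 to 218 bp before the narrow peak. The sixth was the last of the array, from 21540865 to 21541861, whose nearest weaker peak ended 1404 bp before it. The narrow peaks scored 270.7 on average (SD 25.3, n = 6) and the wide ones 236.2 (SD 50.9, n = 17). The ranges overlapped, being 243.2 to 317.89 for narrow and 132.97 to 322.73 for wide peaks.

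The scores of the strong peaks lay in a narrow range for this list. They ran from 132.97 to 322.73, a ratio of 2.43, with a mean of 245.2 (SD 47.7, n = 23). Their coefficient of variation was 0.194, against 0.743 for the 3297 peaks with a score of 100 or more on the rest of the arms. The array peaks lie in a repeat, and how reads matching several copies were assigned is not given, so these spreads may not be comparable. Whether this affects the spread was not tested. Among the 23 peaks, the highest score was that of the fifth (21438416 to 21440890), the last before the break, and the lowest was that of the third (21429028 to 21431120).

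Along the array the scores showed no single trend. The 5 strong peaks before the break scored 294.45, 293.99, 132.97, 235.36 and 322.73. The first after the break scored 294.52. The next 4, from the seventh to the tenth, were low and close together, at 195.16, 187.96, 194.35 and 188.06. The remaining 13 scored from 210.22 to 317.89 (mean 253.9, SD 30.8). The last of them, at the right edge, was the highest of those after the break. The mean was 242.3 after the break (SD 39.3, n = 18) and 255.9 before it (SD 75.7, n = 5), a difference of -13.6. This value rested on 1 peak: without that of 132.97 the mean before the break was 286.6 (SD 36.7, n = 4) and the difference -44.3. Over all 23 peaks, score and order had a Pearson r of 0.158 and a Spearman rho of 0.0850. For the 18 after the break alone, r was 0.487 and rho 0.453. These are descriptions: neighbouring peaks share libraries and, as taken above, near-identical sequence.

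**Figure D3:**
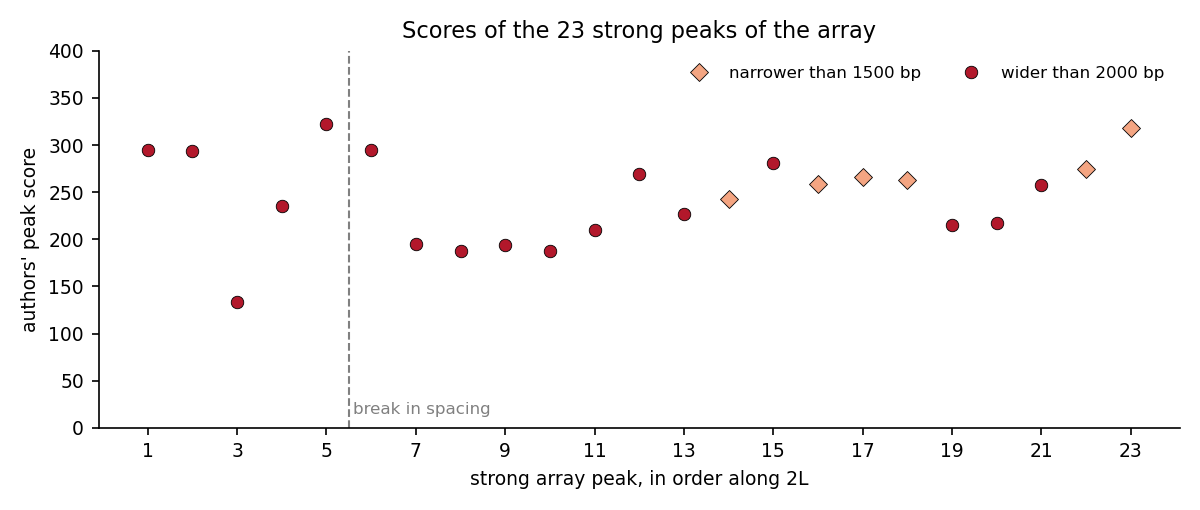
Authors' score of each of the 23 strong array peaks in order along 2L; diamonds are peaks under 1500 bp wide, circles are wider ones, and the dashed line marks the break in spacing. The 4 peaks from the seventh to the tenth lie between 187.96 and 195.16, and all 6 narrow peaks lie at place 14 or later.

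Set in the whole list, strong array peaks scored above most peaks, but they were wide for their score. Of all peaks in the list, 61.9% scored below the lowest strong array peak and 76.9% below the highest. Strong peaks were taken at 100 or more, a score that only 42.7% of the list reached, so neither share could be low. On the rest of the arms, 938 peaks had scores in the same range. The median width was 2125 bp for the 23 array peaks, against 660.5 bp for these 938. Only 11 of these 938, 1.17%, were as wide as the median array peak. Conversely, 258 peaks on the rest of the arms were as wide as the 17 wide array peaks. The median score was 227.2 for the 17 array peaks, against 955.2 (quartiles 662.1 and 1233) for these 258. Of these 258, 17 scored below 322.73, the highest of the array. For the 6 narrow array peaks the gap was smaller, with a median of 265.0, against 499.98 for the 563 arm peaks of the same widths. The 65 weaker peaks of the stretch had a median score of 20.91 and a median width of 425 bp, against 18.39 and 367 bp for the 692 peaks under 100 on the rest of 2L. For the 6713 peaks under 100 in the whole list the medians were 20.98 and 340 bp, so the score was much the same.

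**Figure D4:**
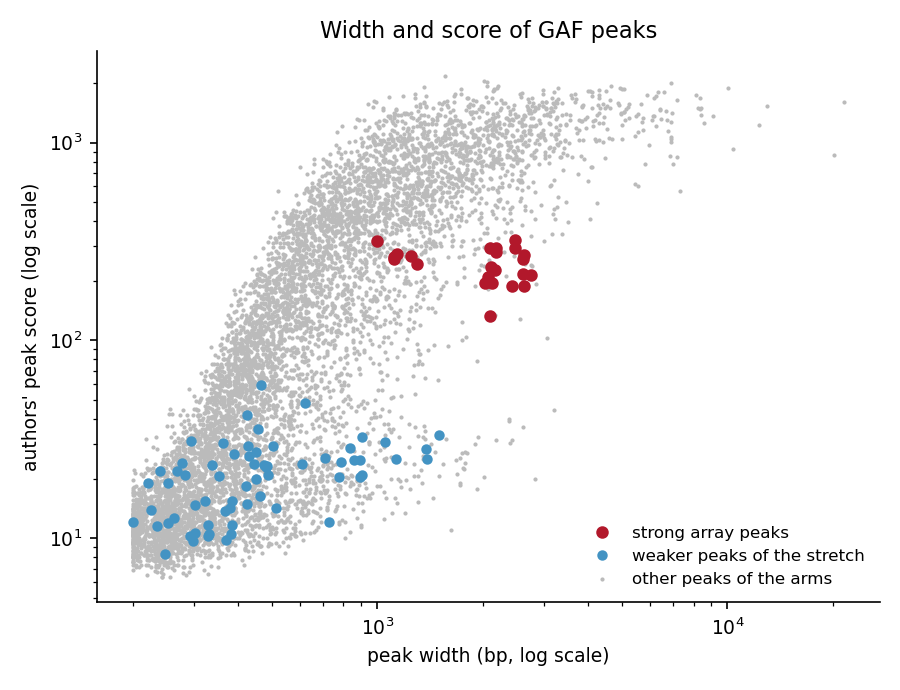
Authors' score against peak width in bp (both axes log) for the strong array peaks (red), the weaker peaks of the stretch (blue) and the peaks of the chromosome arms, with chromosome 4, outside the stretch (grey). The isolated strong peak of 587.41 is not drawn. The wide strong array peaks lie towards the lower edge of the grey cloud at their width, with a median of 227.2 against 955.2.

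The 2 edges of the array differed. On the left, the first strong peak (21418250 to 21420722, score 294.45) was preceded by 2 weaker peaks, with scores of 23.57 and 10.52, and these by 10590 bp with no peak, from 21406086 to 21416675. Beyond this gap stood a separate group of 5 peaks. It was led by the peak of 587.41, 1151 bp wide, followed to the right by weaker peaks of 10.29, 59.75, 42.02 and 23.28. The peak of 59.75 was the highest of all weaker peaks of the stretch. The midpoint of the peak of 587.41 lay 18.031 kb from that of the first array peak.

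On the right, the last strong peak (21540865 to 21541861, score 317.89) was followed by 3 weaker peaks with scores of 35.5, 30.35 and 30.92. The first of them began 76 bp after it. After the third, which ended at 21544901, there was no peak for 15947 bp. The highest-scoring weaker peak within the units, 47.98, lay in the last unit, from 21538841 to 21539460. The irregular last spacing and the weaker peak with the highest score in a unit thus fell in the same unit at the right edge.

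At the limits of the stretch, the first peak inside was the one of 587.41, and the last before the limit, from 21354534 to 21355086 with a score of 392.93, ended 45793 bp to the left of it. The last peak inside, from 21544609 to 21544901, scored 30.92, and the first beyond the limit, from 21560849 to 21561183, scored 14.24. The array was taken as all runs of 5 or more strong peaks spaced by at most 1.5 times the median, so it spans the break. Its outer edges lay where a spacing exceeded that limit or the stretch held no further strong peak. A long first distance on each side was therefore set by that rule, and the distances are given as a description. To the left of the array the next 5 distances between strong peaks were 18.031, 46.645, 6.816, 33.826 and 0.886 kb, and to the right they were 30.0195, 1.5205, 9.7095, 35.903 and 5.203 kb.

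Runs of similar spacings were also counted in the rest of the list. The range used, 4209 to 6715 bp, was the lowest to highest midpoint spacing of the array itself, so the 17 consecutive spacings after the break lay within it by construction, and the stretch had been picked for its even spacing. The counts therefore show only how often that range recurred. Elsewhere in the list the longest run within it was 3 spacings, found on 2R, 3R, X and the unplaced sequence Uextra. With strong peaks taken from a score of 50, the peak of 59.75 left of the array also counted as strong. Its distance from the peak of 587.41 then entered the range, which became 2820 to 6715 bp, although no spacing within the array had changed. With this wider range, 1 run of 5 spacings appeared, on 3R.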

How the data were processed

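GAF ChIP-seq was done on 8 to 16 h embryos, with 3 ChIP and 3 input libraries. Per the submitters' processing notes, the authors used build BDGP5 with MACS2, BWA and 2 versions of CASAVA (1.7.0.2, 1.7.0.3); per the file headers, positions refer to FlyBase release 5. The authors deposited 1 score per peak. Not given in the sources used here are its scale, the calling threshold, the pooling of libraries and the treatment of reads that match several places. Depth is unknown. Starts are listed from 0 and printed counted from 1, and widths are end minus listed start.

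Strong peaks scored 100 or more. Spacings up to 1.5 times their median counted as units, and runs of 5 or more strong peaks so spaced as the array. Members, thresholds, zones and lists were chosen with earlier results of these data known, and the zones, the block and the division of widths at 1500 bp after the offsets and widths were seen. Named peaks were the outermost ones, those beside the limits and the break, and the highest and lowest. Spacing and flanking counts were tested on simulated data with planted units. They came back in 100 of 100 lists. The planted strong peaks were all of equal width, without a break, and their flanking peaks sat at a fixed distance. The simulation therefore does not cover breaks, mixed widths or varied gaps. The software was Python 3.11.15 with matplotlib 3.10.9, scipy 1.17.1, pandas 2.3.3 and numpy 2.4.6. The RefSeq gene table, of assembly Release 6 plus ISO1 MT, gave gene names and order. No promoter sequence or release 5 genome was used, so the planned counts of GAGAG were not made and no sequence is shown.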

Additional observations from a re-analysis of the deposited data

How the results depend on the processing

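Over 7 results, 25 values were computed under alternatives, 2 of them chosen after seeing the data. Of these, 20 stayed within the spread between peaks or, for counts, within 1.5 times. The other 5 moved. The number of peaks in the stretch fell to 24 when those under the list's median score were dropped and to 40 with peaks under 500 bp apart joined, by construction. The mean spacing was 6083 bp with all spacings counted, since the break and the isolated left peak then enter. It was 5020 to 5150 bp in the other settings. The 5020 bp, from a score of 50, includes the spacing of 2820 bp left of the array. A weaker peak ended just before the strong one in 12 of 21 units within 250 bp and in 3 within 100 bp. Even runs elsewhere numbered 1 with strong peaks from a score of 50, against 0, where a wider range of spacings was allowed. The difference in mean score across the break was -13.6, and -44.3 from a score of 150, where the peak of 132.97 drops out. Without that peak the run before the break also falls under the 5 strong peaks required of a run. The part of the array before the break, and with it the left edge, thus rested on that peak. No paired analysis was possible because peaks are listed once for all libraries, which also prevented leaving out a replicate. The alternatives with a shorter and a longer GA motif were not run. With the depth unknown, no limit of detection can be given.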
